A study of Mus musculus with 6 samples.

Results

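The cadherins and protocadherins are adhesion proteins of the cell surface. Their genes were taken from the deposited count table by name, as every gene called Cdh followed by a number or Pcdh followed by any text. This gave 93 genes of the 34718 in the table, namely 23 cadherins, 12 unclustered protocadherins and 58 clustered protocadherins. The clustered genes comprised 14 of the alpha, 22 of the beta and 22 of the gamma cluster. The rule uses names alone.

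Messenger RNA was sequenced from Hepa1-6, a mouse hepatoma cell line grown in culture, in 3 libraries titled shZfp207 and labelled as Zfp207 knockdown and 3 titled shNC and labelled as control. The titles read as short hairpin RNAs, and the number of hairpins and of clones is not stated in the labels. Nothing says whether the libraries of a group came from separate cultures, and p-values therefore reflect only how these libraries vary, which may be technical. Zfp207, a zinc finger gene whose human counterpart ZNF207 encodes a partner of the spindle checkpoint protein BUB3, had 48.0, 48.1 and 46.8 CPM (counts scaled to a library total of 1000000) in knockdown cells. Control cells had 141.4, 198.0 and 216.8 CPM of Zfp207, so the groups were far apart.

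Cadherins bind one another between cells through calcium-dependent extracellular repeats, and the classical members anchor to actin through beta-catenin and alpha-catenin. Protocadherins share the repeats but not the catenin anchor. In the alpha and gamma clusters each gene has its own variable first exon with its own promoter, spliced to constant exons that all genes of that cluster share, and neurons use this to give each cell its own surface identity. Beta genes are separate transcription units, most of them with a single coding exon and none with a shared constant exon. The factors CTCF and cohesin take part in choosing which promoters of the clusters are active.

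Library totals ranged from 14629661 to 15236957 counts in knockdown cells and from 11933736 to 16248346 in control cells. A count of 0 in a library allowed up to 0.197 to 0.205 CPM in knockdown cells and 0.185 to 0.251 CPM in control cells, as a limit of 3 counts that covers counting error only. Control replicate 1 stood apart, with 10.5% of its counts in mitochondrially encoded genes, against 5.6% to 6% in the knockdown libraries and 2.89% and 2.67% in control replicates 2 and 3. Results are therefore given with and without this library for each member whose call it changed, and for some other genes. All 10 hepatocyte markers examined had counts, summing to 7909 to 8079 CPM in knockdown cells and 6407 to 7647 CPM in control cells. Of these 8 were above 1 CPM, and the highest was the keratin gene Krt18, which averaged 2335 CPM. Of 8 neuronal markers, 3 (Snap25, Stmn2 and Gad1) were at 0 in every library, and the list summed to 0.332 to 0.684 CPM in knockdown cells and 0.343 to 1.34 CPM in control cells. Of 8 kidney markers, mostly of the tubule, Aqp2, Slc34a1 and the podocyte gene Nphs1 were at 0, and the sum of 14.1 to 17.5 CPM in knockdown cells and 12.1 to 15.6 CPM in control cells came mainly from Pax2. Of 7 endothelial markers Cldn5 was at 0, and the list summed to 2.10 to 2.94 CPM in knockdown cells and 1.51 to 3.85 CPM in control cells. Of 7 leukocyte markers Cd3e was at 0, and the list, led by Cd68, summed to 11.8 to 13.7 CPM in knockdown cells and 14.4 to 19.1 CPM in control cells. All 7 fibroblast markers had counts, and their sum of 2701 to 2783 CPM in knockdown cells and 2044 to 2309 CPM in control cells was nearly all Dcn, which encodes the matrix proteoglycan decorin.

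Of the 93 members, 35 had no count in any library and 17 had enough counts to test. With edgeR's quasi-likelihood test and Benjamini-Hochberg adjustment over 11975 genes, 3 members rose in knockdown cells (Cdh16, Pcdh19 and Cdh2) and 3 fell (Pcdhb22, Pcdhb16 and Pcdhga1). The level of Pcdhga1, a gamma gene, is uncertain because gamma genes share exons. Without the gamma cluster, an alternative chosen after the data were seen, 13 members were tested, with 3 higher and 2 lower. Over all genes tested 20.6% passed, 9.92% as higher and 10.7% as lower. The median log2 fold change was 0.29 over the 17 members tested and -0.03 over all genes tested. Of the 17, 14 had libraries that did not overlap between the groups, where 44.9% of all genes tested did. Some of the 14, such as Pcdh19, Pcdhb14, Pcdhb17 and Pcdhb22, passed the filter on low counts only through the group where they were higher. Their separation was favoured in advance, so the shares are not a like comparison. Without control replicate 1, 5 members were higher and 5 lower, where 26.1% of all genes passed in each direction. With the replicate number as a block 3 members were higher and 2 lower, where 8.24% of all genes passed, 4.46% as higher and 3.78% as lower.

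**Figure D1:**
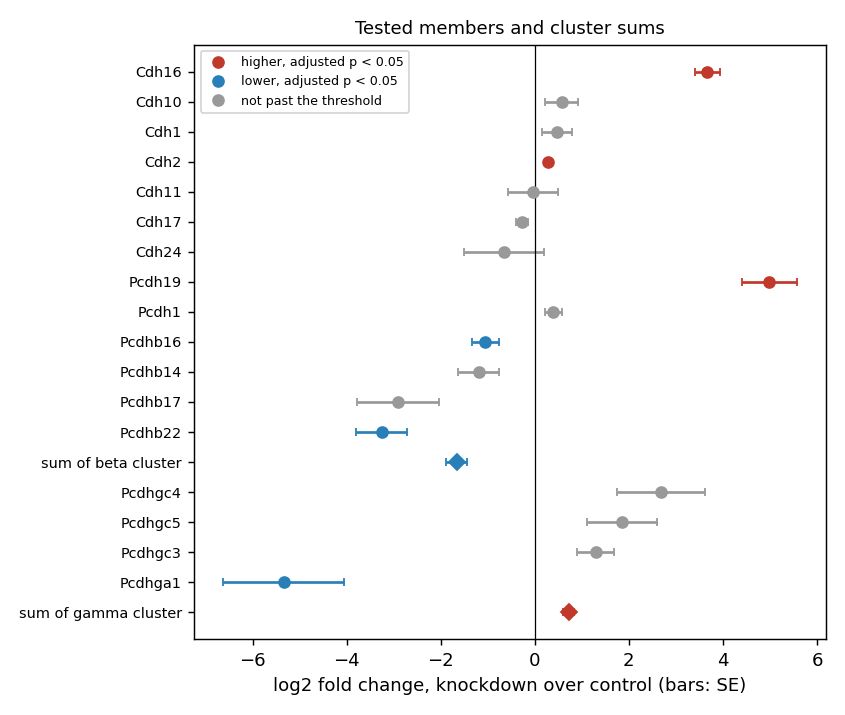
Log2 fold change of knockdown over control for the 17 members with enough counts to test and for the summed beta and gamma clusters, with bars showing the standard error. Cdh16 and Pcdh19 lie far to the right at 3.67 and 4.98, the beta genes and their sum lie left of 0, and gamma genes lie on both sides of a summed value of 0.72.

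The protocadherin beta cluster was lower in knockdown cells as a whole. This cluster spans chr18:37264938-37524479 on the plus strand in mm10, and 20 of its 22 genes share no annotated exonic sequence with another beta gene. Summed over its genes, the cluster had 55, 61 and 37 counts in the knockdown libraries and 154, 138 and 166 counts in the control libraries. Scaled for library size the sum was 3.41 ± 0.781 CPM in knockdown cells and 10.8 ± 1.71 CPM in control cells (SD, n = 3 each). Every knockdown library was therefore below every control library. With the members' rows replaced by cluster sums in the same fit, the sum fell 3.16-fold (log2 fold change -1.66 ± 0.227 SE by edgeR, adjusted p = 0.00628). The call was kept with each library left out, with edgeR adjusted p-values of at most 0.0391, and the log2 fold change was -1.52 without control replicate 1. Permuting the group labels over the 6 CPM values (exact permutation, two-sided) gave p = 0.1, the lowest that 3 against 3 libraries can reach.

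**Figure D2:**
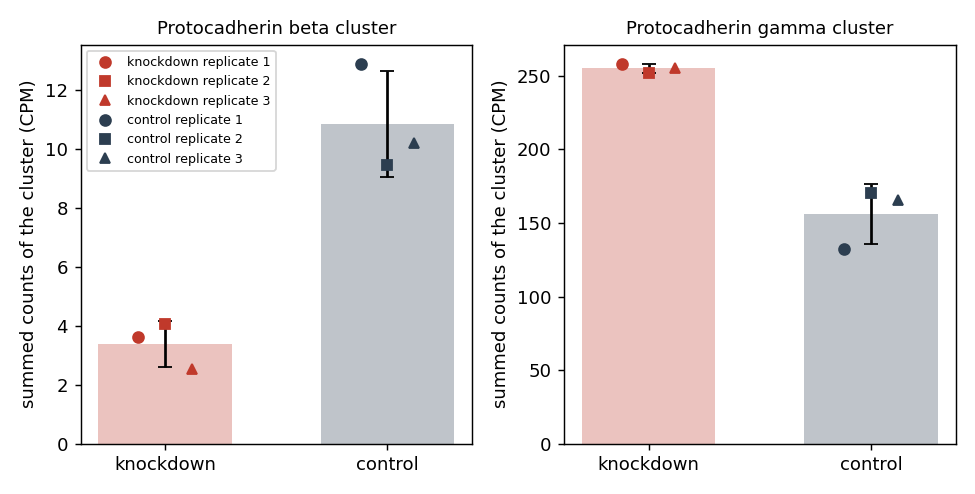
Summed counts of the protocadherin beta and gamma clusters in CPM, with bars for the group mean, error bars for the SD and points for the 3 libraries of each group. The beta sum is lower in all 3 knockdown libraries (2.53 to 4.05 CPM, against 9.46 to 12.9 CPM in control libraries) and the gamma sum is higher in all 3 (252 to 258 CPM, against 132 to 170 CPM in control libraries).

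Most beta genes contributed to this difference, at very low levels. Of the 22 genes 19 had at least 1 count, and by counts summed over the 3 libraries of a group 16 had fewer in knockdown cells, 2 (Pcdhb4 and Pcdhb8) had more and 1 (Pcdhb2) had the same number. In 9 of the 19 every knockdown library was below every control library in CPM. The beta genes tested, Pcdhb14, Pcdhb16, Pcdhb17 and Pcdhb22, were each among the 9. Over all genes with enough counts to test the share was 23.4%, but 15 of the 19 beta genes were too low to be tested. No share over other genes this low was computed for these counts. Of the beta genes tested, Pcdhb14, Pcdhb17 and Pcdhb22 passed the filter on low counts only through their control libraries, where they were higher. Their separation was therefore favoured in advance and cannot be set against the 23.4%. Pcdhb16, the most abundant, had 37, 35 and 21 counts in knockdown libraries and 40, 69 and 79 in control libraries. The groups did not overlap for Pcdhb16 after scaling, at 2.43, 2.32 and 1.44 CPM in knockdown cells against 3.35, 4.73 and 4.86 CPM in control cells. Pcdhb16 fell 2.08-fold (log2 fold change -1.05 ± 0.288 SE by edgeR, adjusted p = 0.0449), a call that remained in 1 of the 6 fits that leave out a library. That fit was the one without control replicate 1, where edgeR gave an adjusted p of 0.00551.

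Pcdhb22 showed the sharpest fall among the beta genes that passed the test. It had 3, 1 and 1 counts in knockdown libraries and 19, 12 and 17 counts in control libraries, so the groups were well apart. Its log2 fold change by edgeR was -3.25 ± 0.545 (SE, adjusted p = 0.0104), and the call was lost without knockdown replicate 2 or 3, with an adjusted p of up to 0.0643. In its exons 6.88% of the sequence is shared with Pcdhb21. Pcdhb17 had 1, 7 and 1 counts in knockdown libraries against 37, 14 and 13 in control libraries, the highest being control replicate 1. Its log2 fold change of -2.92 ± 0.873 (SE) came with an edgeR adjusted p of 0.0582 with all libraries, and of 0.0399 without control replicate 1, where the log2 fold change was -2.08. In the other 5 fits with a library left out Pcdhb17 did not pass, with edgeR adjusted p-values of up to 0.186 and a log2 fold change of -4.39 without knockdown replicate 2. Pcdhb14 had 5, 8 and 4 counts in knockdown libraries and 15, 10 and 12 in control libraries, with a log2 fold change by edgeR of -1.19 ± 0.439 (SE, adjusted p = 0.101). Without control replicate 1 this was -0.89 (edgeR adjusted p = 0.127).

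The beta genes too low to test had the same direction in sum. These 15 genes together had 9, 10 and 10 counts in knockdown libraries and 43, 33 and 45 counts in control libraries. In 8 of them no knockdown library had a count while control libraries did, and in 0 the reverse held. These numbers were 6 and 1 among the cadherins and 6 and 2 among the gamma genes. Among the unclustered protocadherins they were 0 and 1, and among the alpha genes also 0 and 1. The pattern was thus not particular to the beta genes. How often genes outside the 93 members show it at such low counts was not computed. Pcdhb19 was the most abundant of the 8 beta genes, with 0 counts in each knockdown library against 6, 2 and 8 in control libraries. It was 5.60-fold lower with 3 counts over the group in place of 0 and the control count taken as exact. The 95% exact counting interval, which covers error in both counts, starts at 4.05-fold lower. Pcdhb15 had 0 in each knockdown library and 0, 6 and 3 in control libraries. It was 3.15-fold lower in the same way, with an interval that starts at 2.07-fold. Pcdhb6 and Pcdhb7 each had 0 counts in knockdown libraries and a total of 8 in control libraries. Each was 2.80-fold lower in the same way, with an interval that starts at 1.79-fold. Pcdhb5 had 2, 2 and 7 counts in knockdown libraries and 8, 8 and 16 in control libraries, a ratio of 0.327 (95% exact counting interval 0.149 to 0.666). Without Pcdhb16 the rest of the cluster summed to 18, 26 and 16 counts in knockdown libraries and 114, 69 and 87 in control libraries, with a log2 fold change by edgeR of -2.27 ± 0.358 (SE, adjusted p = 0.00894), an alternative chosen after the data were seen.

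**Figure D3:**
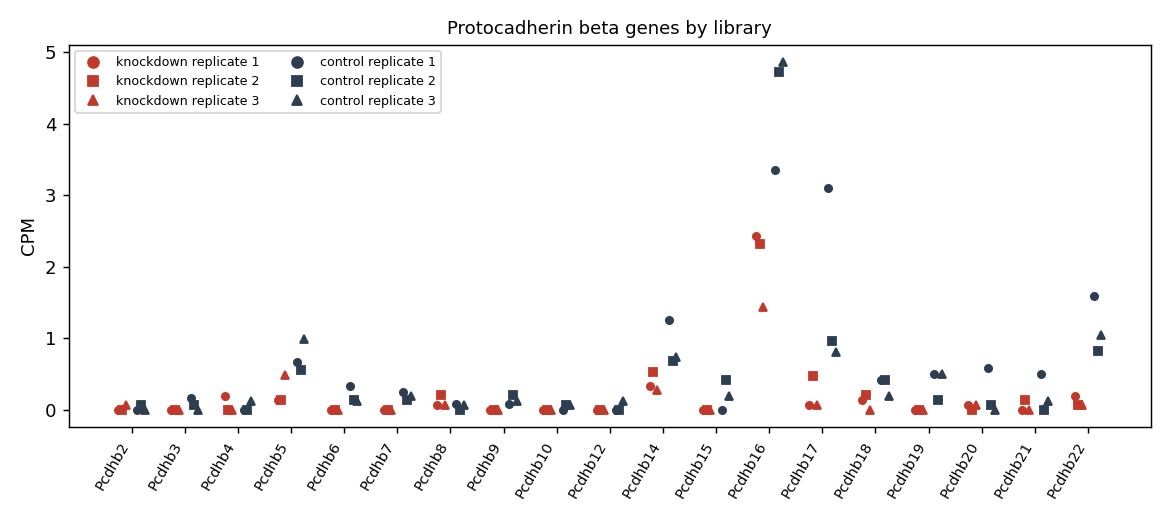
CPM of the 19 protocadherin beta genes with a count, in the order in which they lie along the cluster, with 1 point per library. Pcdhb16 stands highest (1.44 to 2.43 CPM in knockdown libraries, 3.35 to 4.86 CPM in control libraries). In 9 genes every knockdown library lies below every control library, where 23.4% of all genes with enough counts to test do. Of the 19 genes shown, 15 were too low to be tested, and Pcdhb14, Pcdhb17 and Pcdhb22 could be tested only through their control libraries.

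The protocadherin gamma cluster went the other way as a sum. It spans chr18:37661793-37841873 on the plus strand in mm10, and each of its 22 genes shares between 27.8% and 66.8% of its annotated exonic sequence with other genes of the cluster. The sum was 3933, 3796 and 3740 counts in knockdown libraries and 1580, 2487 and 2689 counts in control libraries, the lowest being control replicate 1. After scaling it was 256.4 ± 2.38 CPM in knockdown cells and 155.5 ± 21.7 CPM in control cells (SD, n = 3 each). All knockdown libraries were thus above all control libraries, and the knockdown libraries were close together. The summed cluster rose 1.65-fold (log2 fold change 0.72 ± 0.12 SE by edgeR, adjusted p = 0.0101). Without control replicate 1 the log2 fold change was 0.61 (edgeR adjusted p = 4.72e-05), and without any 1 knockdown replicate the adjusted p was 0.054 to 0.06 at log2 fold changes of 0.72 to 0.73. Here too the exact permutation p, two-sided, was 0.1, the lowest possible.

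How the gamma counts fell on single genes differed widely between libraries of the same group. Pcdhgc3, one of the C-type genes at the end of the cluster, had 3340, 1921 and 1789 counts in knockdown libraries and 381, 1203 and 1261 in control libraries. It took 84.9% of the cluster's counts in knockdown replicate 1 (Wilson 95% interval 83.8% to 86%), 50.6% and 47.8% in knockdown replicates 2 and 3, and 24.1%, 48.4% and 46.9% in control replicates 1 to 3. Its groups did not overlap, but its SD of 53.7 CPM over the knockdown libraries, around a mean of 156.8 CPM, was far larger than the SD of 2.38 CPM of the cluster sum. Its log2 fold change by edgeR was 1.29 ± 0.396 (SE, adjusted p = 0.0617), and 0.97 without control replicate 1 (edgeR adjusted p = 0.0143). Of the exonic sequence of Pcdhgc3, 28.4% also overlaps a gene on the opposite strand, and no label states the strand setting of the counting.

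Pcdhga1, the first gene of the cluster, had 62, 0 and 0 counts in knockdown libraries and 954, 204 and 1214 in control libraries. The groups did not overlap, and control replicate 2 lay well below the other controls. The log2 fold change by edgeR was -5.34 ± 1.29 (SE, adjusted p = 0.0315), and it ranged from -12.66 to -4.76 with a library left out. The call was lost without control replicate 3, knockdown replicate 2 or knockdown replicate 3, with an adjusted p of up to 0.106, and DESeq2 gave an adjusted p of 0.101. In control replicate 2 the gene Pcdhgb8 had 618 counts and was at 0 in the other 5 libraries. Pcdhga8 had 64 counts in that library alone, and Pcdhga9 had 111 counts in knockdown replicate 3 alone.

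The remaining abundant gamma genes had similarly uneven counts. Pcdhgc4, whose identifier ENSMUSG00000023036 is named Pcdhga8 in the deposited table but Pcdhgc4 in GENCODE M21, had 142, 904 and 1371 counts in knockdown libraries and 211, 41 and 92 in control libraries. The groups overlapped for Pcdhgc4, since knockdown replicate 1 lay below control replicate 1, and the log2 fold change of 2.68 ± 0.94 (SE) came with an edgeR adjusted p of 0.0891. Without control replicate 1 the log2 fold change of Pcdhgc4 was 3.67 (edgeR adjusted p = 0.0164). Pcdhgc5 had 367, 963 and 466 counts in knockdown libraries and 30, 338 and 121 in control libraries, with a log2 fold change by edgeR of 1.85 ± 0.748 (SE, adjusted p = 0.127). For Pcdhgc5 this ran between 1.34 and 2.99 with a library left out, and it passed without control replicate 2 (edgeR adjusted p = 0.0383) at the upper end. The cluster sum without Pcdhgc3 was 593, 1875 and 1951 counts in knockdown libraries and 1199, 1284 and 1428 in control libraries, so that the groups overlapped, an alternative chosen after the data were seen (log2 fold change 0.12 ± 0.418 SE by edgeR, adjusted p = 0.866). Without the counts assigned to Pcdhgc3, the gamma sum thus no longer passed the test. Because shared constant exons make the assignment of a read to a single gamma gene ambiguous, the levels of single gamma genes are uncertain, and how shared reads were assigned was not tested.

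**Figure D4:**
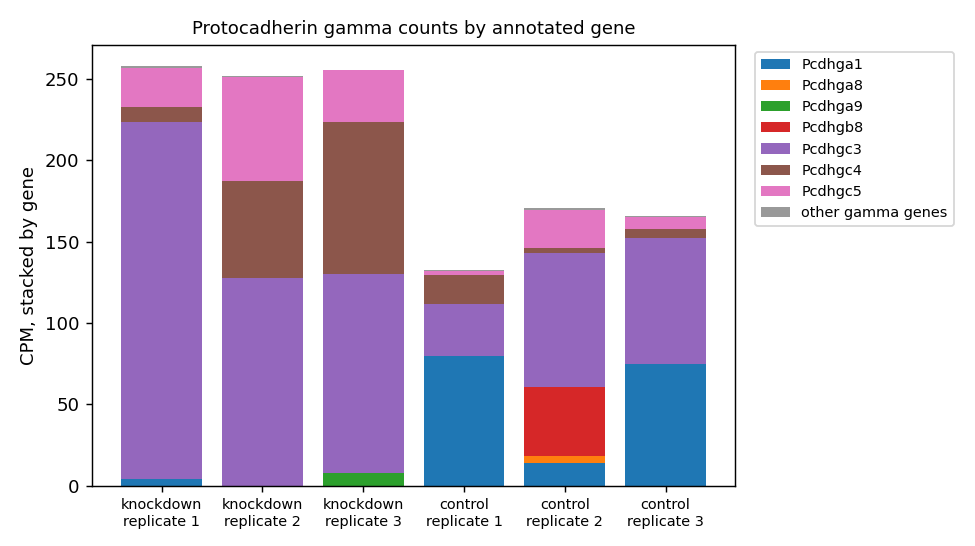
CPM assigned to each annotated protocadherin gamma gene, stacked for each library. The total height is nearly equal among knockdown libraries (252 to 258 CPM) while its division among genes such as Pcdhgc3 and Pcdhgc4 differs from library to library within both groups.

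The alpha cluster was not detectable at this depth. Its 14 genes, which span chr18:36930184-37187661, had 0, 1 and 0 counts in the knockdown libraries and 0 in each control library. The single count fell on Pcdhac2.

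Among the cadherins outside the clusters, Cdh16 had the largest change that passed the test. Cdh16 encodes kidney cadherin, a member with a short cytoplasmic tail that lacks the catenin-binding region, and lies on the minus strand at chr8:104614141-104624396 in mm10. It had 22.7, 22.7 and 23.7 CPM in knockdown cells and 1.01, 2.19 and 2.15 CPM in control cells. The groups were far apart, and the lowest library was control replicate 1. The rise had a log2 fold change by edgeR of 3.67 ± 0.263 (SE, adjusted p = 0.00153), which was 3.41 without control replicate 1, and the call was kept with each library left out. Of the 8 kidney markers 3 were at 0 in all libraries while Pax2 averaged 14.2 CPM, and the list summed to 14.1 to 17.5 CPM in knockdown cells and 12.1 to 15.6 CPM in control cells. Their part in the change of Cdh16 was not tested.

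Cdh17 was by far the most abundant member. It encodes liver-intestine cadherin, a relative of Cdh16 with the same short tail, and lies at chr4:11758147-11817895. Cdh17 had 1426, 1457 and 1458 CPM in knockdown cells and 1527, 1893 and 1834 CPM in control cells. Per kilobase of annotated exonic sequence this was 323 CPM in knockdown cells and 391 CPM in control cells. Although every knockdown library was lower, control replicate 1 was close to them, and the log2 fold change of -0.26 ± 0.127 (SE) came with an edgeR adjusted p of 0.188. Without control replicate 1 it was -0.36 with an adjusted p of 0.00024.

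Of the classical cadherins, Cdh2 was abundant and Cdh1 was not. Cdh2 encodes N-cadherin, which hepatocytes carry beside the E-cadherin encoded by Cdh1. Cdh2 had 116.6, 118.9 and 117.8 CPM in knockdown cells and 98.1, 97.8 and 95.8 CPM in control cells, 2 tight groups that did not overlap. The rise was 1.22-fold (log2 fold change 0.29 ± 0.0764 SE by edgeR, adjusted p = 0.0405). The call remained only without control replicate 1 (edgeR adjusted p = 0.00193) among the 6 fits with a library left out, and it was lost with the replicate number as a block (edgeR adjusted p = 0.133) and with upper-quartile scaling (0.0798). It was also lost with no filter beyond 1 count (edgeR adjusted p = 0.0982) and by limma on log2 FPKM (adjusted p = 0.0551). Cdh1 had 14, 15 and 12 counts in knockdown libraries and 9, 11 and 8 in control libraries, with a log2 fold change by edgeR of 0.47 ± 0.328 (SE, adjusted p = 0.349). Per kilobase of annotated exonic sequence Cdh2 was at 14.6 CPM in knockdown cells and 12.1 CPM in control cells, and Cdh1 at 0.199 CPM in knockdown cells and 0.146 CPM in control cells.

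The remaining cadherins were low or absent. Cdh10, a type II cadherin known mainly from brain, had 20, 23 and 20 counts in knockdown libraries and 7, 19 and 15 in control libraries (log2 fold change 0.57 ± 0.351 SE by edgeR, adjusted p = 0.289). Cdh11, known from mesenchymal cells, had 12, 14 and 13 counts in knockdown libraries and 3, 16 and 21 in control libraries (log2 fold change -0.05, edgeR adjusted p = 0.964). Without control replicate 1 the log2 fold change of Cdh11 was -0.45 (edgeR adjusted p = 0.239). Cdh24 had 1, 4 and 11 counts in knockdown libraries and 9, 12 and 3 in control libraries (log2 fold change -0.65, edgeR adjusted p = 0.622). Cdh5, the endothelial cadherin, had 1 count in knockdown replicate 3 and 1 in control replicate 3. Of the 23 cadherins 8 had no count, among them Cdh3, which encodes P-cadherin.

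**Figure D5:**
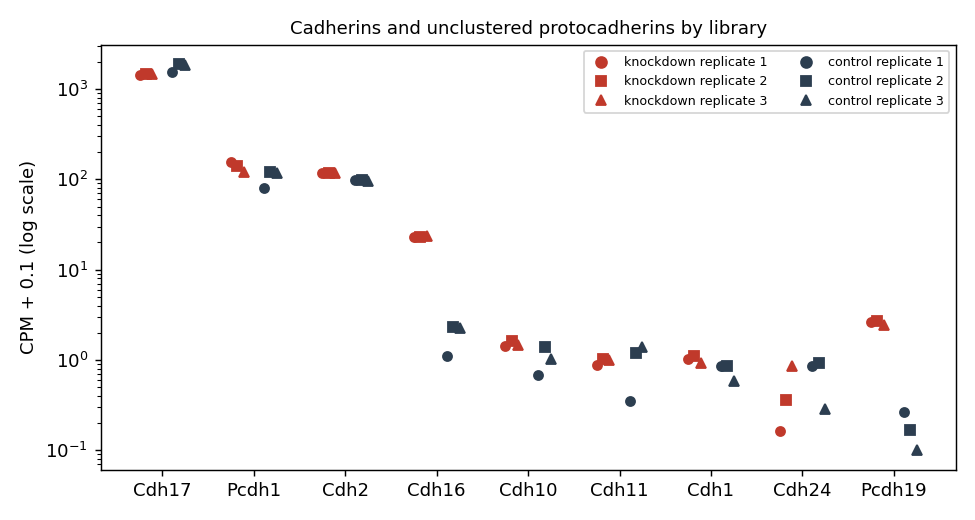
CPM plus 0.1 on a log scale for the 9 cadherins and unclustered protocadherins with enough counts to test, ordered by their level in control cells, with 1 point per library. Cdh16 and Pcdh19 show wide gaps between the groups, Cdh2 a narrow one, and control replicate 1 is the lowest control point for Cdh17, Pcdh1, Cdh16, Cdh10 and Cdh11.

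Among the unclustered protocadherins Pcdh19 rose in knockdown cells and was nearly absent from control cells. In humans PCDH19 is an X-linked gene known for its part in an early-onset epilepsy, and the mouse gene lies on the minus strand at chrX:133582860-133688987. Pcdh19 had 39, 39 and 34 counts in knockdown libraries and 2, 1 and 0 in control libraries, with no overlap. The ratio of summed counts, scaled by library totals, was 35.5 (95% exact counting interval 11.9 to 174.9, counting error only). The fitted log2 fold change by edgeR was 4.98 ± 0.586 (SE, adjusted p = 0.00439), and the call was kept with each library left out, with an adjusted p of up to 0.0363. The log2 fold change was 5.95 without control replicate 1 and 4.36 without control replicate 3. In knockdown cells its level was 2.50 ± 0.139 CPM and in control cells 0.0780 ± 0.0831 CPM (SD, n = 3 each).

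Pcdh1, a protocadherin known from epithelia, was the most abundant of the unclustered group and lies on chromosome 18 outside the 3 clusters. It had 156.3, 139.6 and 119.6 CPM in knockdown cells and 80.3, 119.5 and 118.8 CPM in control cells. The libraries barely separated, and knockdown replicate 3 stood next to control replicates 2 and 3. Its log2 fold change of 0.39 ± 0.184 (SE) came with an edgeR adjusted p of 0.177, and it was 0.22 without control replicate 1 (adjusted p 0.101). Per kilobase of annotated exonic sequence Pcdh1 was at 15.7 ± 2.09 CPM in knockdown cells and 12.1 ± 2.55 CPM in control cells (SD, n = 3 each). These levels did not differ from those of Cdh2 beyond the spread between libraries, while Cdh17 lay far above both and Cdh16 below them at 6.07 CPM in knockdown cells and 0.471 CPM in control cells.

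Pcdh9, known mainly from brain and too low to test, pointed the other way. It had 1, 0 and 4 counts in knockdown libraries and 8, 9 and 11 in control libraries, a ratio of 0.17 (95% exact counting interval 0.0512 to 0.446). Pcdh9 was named after its values were seen. Pcdh15 had 5, 1 and 2 counts in knockdown libraries and 5, 4 and 3 in control libraries. Pcdh7 had 1, 0 and 3 counts in knockdown libraries and 0, 1 and 0 in control libraries, and Pcdh8 and Pcdh12 had at most 3 counts in any library. The other 5 unclustered protocadherins had none.

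The 250 bases before the annotated start are shown for Pcdh19 and Pcdh9, the unclustered protocadherins that stood furthest apart in direction, from the RefSeq promoter table for GRCm38.p6 (chrX:133688994-133689243 and chr14:93890680-93890929, both on the minus strand). Capitals mark CpG dinucleotides.
Pcdh19: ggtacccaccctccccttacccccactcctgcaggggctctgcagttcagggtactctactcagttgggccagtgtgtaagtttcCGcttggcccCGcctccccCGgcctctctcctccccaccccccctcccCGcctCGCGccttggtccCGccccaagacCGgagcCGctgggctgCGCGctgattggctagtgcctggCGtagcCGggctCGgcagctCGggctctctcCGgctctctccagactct
Pcdh9: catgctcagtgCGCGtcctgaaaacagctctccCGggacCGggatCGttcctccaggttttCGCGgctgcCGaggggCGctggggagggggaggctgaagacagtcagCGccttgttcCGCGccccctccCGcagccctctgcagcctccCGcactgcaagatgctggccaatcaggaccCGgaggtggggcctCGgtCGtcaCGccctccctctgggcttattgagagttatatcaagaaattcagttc
Pcdh19 had 16 CpG dinucleotides in this window and Pcdh9 had 18, where the median over 32851 such windows was 6. At least as many as in Pcdh19 were found in 25.4% of windows, and at least as many as in Pcdh9 in 21.7%. The letters CCAAT, read on both strands, occurred in both windows and in 33.8% of all windows. GGGCGG on either strand occurred for Pcdh19, not for Pcdh9, and in 32.7% of all windows. These matches are a description of the sequence.

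Genes that work with cadherins were examined as 4 lists. Of 16 adherens junction partners 13 could be tested, and only Ctnnb1, the gene of beta-catenin, passed, where 20.6% of all genes tested did. Ctnnb1 had 405.9, 448.0 and 427.6 CPM in knockdown cells and 678.1, 678.9 and 693.1 CPM in control cells, with no overlap and little spread. It fell 1.59-fold (log2 fold change -0.66 ± 0.0917 SE by edgeR, adjusted p = 0.00643), and the call was lost without knockdown replicate 3 at an adjusted p of 0.052. The list's median log2 fold change was 0.08. Jup, the gene of plakoglobin, had a log2 fold change of -0.49 (edgeR adjusted p = 0.13), and Ctnna1, the gene of alpha-catenin, one of -0.02 (0.964), both named after their values were seen. Without control replicate 1 these were -0.69 and -0.22, with edgeR adjusted p-values of 0.000621 and 0.00158, and 2 genes of the list were higher and 3 lower, where 52.1% of all genes passed.

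Of 27 further genes of the cadherin superfamily 6 could be tested and 3 rose, where 9.92% of all genes tested did, and the list's median log2 fold change was 0.86. Dsc2, the gene of the desmosomal cadherin desmocollin-2, had 105.8, 105.9 and 99.7 CPM in knockdown cells and 26.1, 41.3 and 44.1 CPM in control cells (log2 fold change 1.49 ± 0.199 SE by edgeR, adjusted p = 0.00598). Cdhr2, which encodes a protocadherin of microvilli, had 39.8, 37.3 and 39.1 CPM in knockdown cells and 19.0, 21.2 and 23.7 CPM in control cells (log2 fold change 0.87 ± 0.118 SE by edgeR, adjusted p = 0.00611). For Dsc2 and Cdhr2 the groups were well separated, and both calls were kept with each library left out. Fat1, a giant atypical cadherin, had 1036, 1055 and 1051 CPM in knockdown cells and 319.8, 635.3 and 612.7 CPM in control cells, where control replicate 1 was the lowest. Its log2 fold change by edgeR was 1.01 ± 0.259 (SE, adjusted p = 0.037), and 0.75 without control replicate 1 (edgeR adjusted p = 1.73e-05). The Fat1 call was lost in each of the other 5 fits with a library left out, with an adjusted p of up to 0.121. In the fit that leaves out control replicate 1, 7 genes of the list could be tested, of which 5 were higher and 2 lower, where 26.1% of all genes passed in each direction.

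Neither of the last lists had a member past the threshold with edgeR, where 20.6% of all genes tested passed. Of 15 repressors of cadherin transcription and cadherin proteases, such as Snai1, Zeb1 and Adam10, 11 were tested with edgeR and 0 passed, against 2 lower at an unadjusted p below 0.05, 1 lower with DESeq2 and 0 with limma on log2 FPKM. Of 17 genes that control promoter choice in the protocadherin clusters, such as Ctcf, Rad21 and Smchd1, 17 were tested with edgeR and 0 passed. At an unadjusted p below 0.05 there were 2 higher and 3 lower, DESeq2 called 1 lower, and limma called 0. Over all 11975 genes 2008 were higher and 2288 lower at an unadjusted p below 0.05, and DESeq2 called 1587 higher and 1651 lower. Of the 13068 genes that limma tested on log2 FPKM, it called 1124 higher and 1183 lower. When control replicate 1 was left out, 6 of the repressors and proteases were lower, and 2 of the promoter choice genes were higher and 6 lower, where 52.1% of all genes passed.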

How the data were processed

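The authors deposited a table of raw read counts per gene and a table of FPKM values for the same 34718 genes in 6 libraries, per the file headers. Per the submitters' processing notes, the tools include featureCounts 1.5.0-p3 and HISAT2 2.0.5, and mm10 is the genome build. The roles of the tools, the annotation, the strand setting and the handling of reads that genes share are not stated there. In 8801 genes with at least 100 counts in every library, the deposited counts and FPKM values implied the same gene length in all libraries within 0.0223%.

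The counts went into edgeR's quasi-likelihood test (edgeR 4.0.16, R 4.3.3) after filterByExpr (11975 genes) and TMM scaling, with group as the only term and all 6 libraries. The threshold was an adjusted p below 0.05. Values per library are CPM of library totals, and means ± SD are TMM-scaled CPM. The SE is the log2 fold change divided by the square root of the F statistic. All 93 members were matched by identifier to GENCODE M21 (GRCm38, the assembly of mm10), 82 with the same coordinates, for strand, exonic length and overlap. Exonic lengths of this annotation, not those behind FPKM, were used per kilobase. Where a group was at 0, fold differences use 3 counts over that group and take the other group's count as exact. Intervals cover counting error only, since reads are not independent molecules.

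The members, lists and naming rule were chosen with earlier results of these data known. The rule names each member past the threshold or with a mean of at least 1 CPM, the 2 most counted genes of each cluster, and up to 4 called genes per list. Other genes were named after their values were seen. In simulated counts for 11975 genes with 200 changed, 7.46% of genes changed 1.5-fold, 43.3% changed 2-fold and 92.4% changed 4-fold were recovered, with 5.94% false calls. Far fewer genes were changed there than the 2466 called in the data, so these rates need not hold for the real comparison. Alternatives were RLE and upper-quartile scaling, other filters on low counts, DESeq2 1.42.0, limma 3.58.1 on log2(FPKM + 0.1) for genes with a mean FPKM of at least 0.1, the replicate number as a block, and leaving out each library.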

Additional observations from a re-analysis of the deposited data

How the results depend on the processing

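The summed beta cluster kept its direction and its call under every alternative run, with log2 fold changes of -1.80 to -1.49 when a library was left out; limma on log2 FPKM was not run on cluster sums. The gamma sum kept its direction, at 0.61 to 0.79 with a library left out, but not its call without any 1 knockdown replicate, and it was 0.12 without Pcdhgc3. The number of members past the threshold was 6 of 17, between 2 and 10 with a library left out, and 2 by limma on log2 FPKM, where Pcdh19 is too low in FPKM to be tested. Over all genes it was 2466, between 534 and 6313 with a library left out. It was 2307 by limma, 2584 with upper-quartile scaling and 3238 with DESeq2. Over the 4 lists the number was 4, between 2 and 26 with a library left out, 9 with upper-quartile scaling and 8 with DESeq2. The cause of these changes was not tested. DESeq2 also called Pcdhgc3, Pcdhgc4 and Pcdhb17 (adjusted p 0.00586, 0.0457 and 0.0115). Neither the beta and gamma sums nor the 14 genes recomputed (13 members named by the rule and Zfp207) changed direction under the scaling, filter and tool alternatives that could be run for each. Pcdhb16 was lost with no filter beyond 1 count (edgeR adjusted p = 0.057) and by limma (0.0515). Cdh1, Cdh11, Cdh24, Pcdhb14 and the listed genes were not recomputed one by one under these.

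Same-numbered libraries hardly deviated together (r across genes -0.01, 0.01 and 0.05 for replicates 1 to 3). Knockdown replicate 3 correlated best with control replicate 3. Knockdown replicate 1 did so with control replicate 2 (r = 0.02) and knockdown replicate 2 with control replicate 1 (r = 0.02). The numbers are therefore taken as names only. With the replicate number as a block 987 genes and 5 members passed, the beta sum was -1.67 and the gamma sum 0.73, both past the threshold (edgeR adjusted p = 0.0337 and 0.042). Cdh2 and Pcdhb16 did not pass there (0.133 and 0.112), and Pcdhgc5 did (0.0369). Genes with few counts limit the precision: 41 members with at least 1 count could not be tested.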
